A study of Mus musculus with 18 samples.

Results

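CYP2 and CYP3 genes were examined in mouse liver as a family: every gene whose symbol begins with Cyp2 or Cyp3 followed by a letter and that has a probe set paired with exactly 1 symbol. The rule found 40 genes on the array, of 18193 genes in all, represented by 47 probe sets. For each gene the brightest probe set was used. Of the 40 genes, 35 were bright enough to be tested, among 13645 genes tested in all, and 5 were too dim (Cyp2b19, Cyp2c65, Cyp2j11, Cyp2j13 and Cyp3a16). All 40 matched a RefSeq entry with the same symbol by gene identifier. RefSeq lists 57 protein-coding genes of these families in the mouse, so several relatives were outside the rule.

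The livers came from male C57BL/6J mice, with no genetic change named in the labels, that entered the study at 5 weeks of age and ate their diet for 20 weeks after 1 week on standard chow. One group ate the purified diet AIN93G (control), one a Western-style diet with 39.9% of its energy from fat and 34% from sucrose (from 20% butter and 1% soy oil, with added cholesterol at 0.15%), and one the same Western-style diet with 0.05% quercetin, a plant flavonoid. Each group had 6 arrays, and per the labels cDNA was made from each animal's own RNA. The series asks whether quercetin lessens what the Western-style diet does to the liver. The control diet with quercetin was not analysed here. Mice were housed 3 to a cage, and the labels do not say which shared one.

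Cytochromes P450 are heme enzymes of the endoplasmic reticulum that add oxygen to their substrates, with electrons passed on by P450 oxidoreductase (Por). The CYP2 and CYP3 families are the main P450s of hepatocytes for drugs and other foreign compounds, and they also act on steroids, bile acids and polyunsaturated fatty acids such as arachidonic acid. Many are under the nuclear receptors CAR (Nr1i3) and PXR (Nr1i2), of which Cyp2b10 and Cyp3a11 are the textbook targets in the mouse. Several mouse members are sex-biased through the pattern of growth hormone release: Cyp2b9, Cyp2b13 and Cyp3a44 are known as female-predominant and Cyp2d9 as male-predominant.

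Levels are log2(signal + 16) after quantile normalization of the arrays, and each fold change is a ratio of signal + 16, which understates the change of dim genes. Control arrays 4 and 5 were nearly identical (correlation 0.999669 on the linear scale, against 0.995938 for the next closest pair). Whether they come from different mice is uncertain, so they were averaged into 1 sample, called control 4-5, so that n = 5 for control and n = 6 for each of the other groups. As deposited, the arrays differed in brightness, with a trimmed mean signal of 75.1 ± 5.58 (SD, n = 5) in control, 91.3 ± 8.51 (SD, n = 6) on the Western-style diet and 91.2 ± 5.17 (SD, n = 6) with quercetin. The log2 ratio of the 3′ to the 5′ actin control probe sets, a measure of RNA integrity and labelling, was 0.687 ± 0.0558 in control and 0.544 ± 0.110 on the Western-style diet (exact two-sided permutation test, p = 0.0325). With quercetin it was 0.554 ± 0.0783 (p = 0.0195 against control, same exact test). The part of brightness in the differences from control was not tested directly, and a fit that holds the actin ratio constant is given beside the counts. A gene's lower level in whole liver can come from fewer cells that express it or from less RNA per cell, and these cannot be told apart here.

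On the Western-style diet 4 of the 35 tested genes fell and none rose: Cyp2u1, Cyp2d13, Cyp2c68 and Cyp2c54 (limma, adjusted p under 0.05 over all genes tested). They make up 11.4% of the genes tested in the family, beside 8.65% of all 13645 genes called in either direction, 3.16% called lower and 5.49% called higher. The other 31 did not pass. With the actin ratio held constant 1 of the 35 fell, Cyp2u1 (-0.88, adjusted p = 0.032), and 223 of all genes were called in place of 1180. At an unadjusted p under 0.05 there were 10 lower genes (28.6%, beside 10.9% of all genes) and 2 higher, Cyp2c38 and Cyp3a11 (beside 12.4% of all genes). The median log2 difference was -0.13 in the family and -0.01 over all genes tested, with 26 of 35 differences below 0 (74.3%, beside 53% of all genes). On the signals as deposited all genes shifted upward by a median of 0.22 and the median of the family was 0.05, with 16 of 35 below 0. Relative to that shift, 27 of the 35 genes were still below it.

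**Figure D1:**
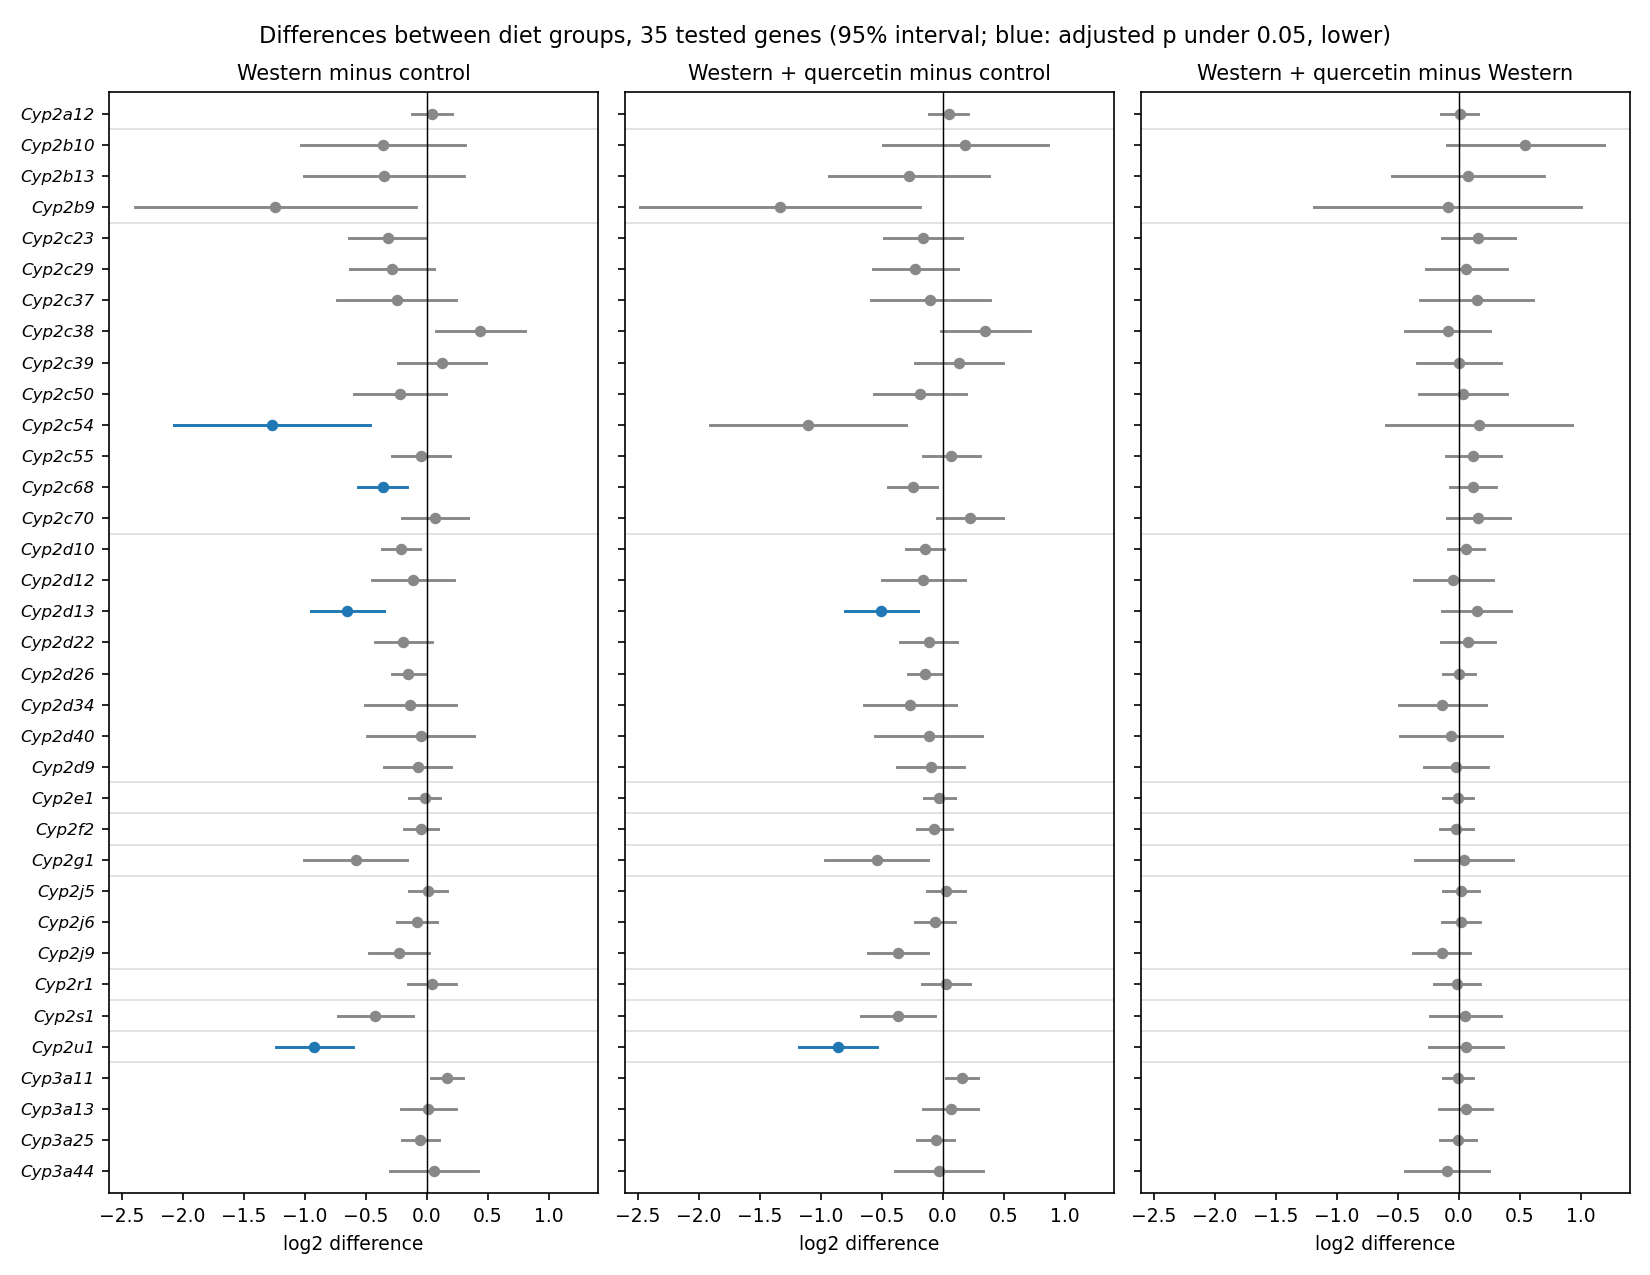
Log2 differences (x axis) of the 35 tested CYP2 and CYP3 genes (rows, by subfamily) for Western minus control, Western with quercetin minus control, and Western with quercetin minus Western; points are differences of group means and lines their 95% intervals. Blue marks the genes that fell at an adjusted p under 0.05, 4 in the left panel, 2 in the middle panel and 0 in the right panel.

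Cyp2u1 encodes a hydroxylase of long-chain fatty acids and was the only Cyp2u gene on the array. Its levels were 6.73, 7.05, 6.90, 6.23 and 6.75 in control samples 1, 2, 3, 4-5 and 6. On the Western-style diet they ran from 5.56 through a median of 5.74 to 6.14. Every Western sample lay below every control sample. The gene fell by 0.92 on the log2 scale (SE 0.152, 95% interval -1.24 to -0.60), 1.89-fold lower, with an adjusted p of 0.00126. As deposited, its mean signal was 74.6 over the 6 control arrays (4 and 5 counted apart) and 43.8 on the Western-style diet. A second, dimmer Cyp2u1 probe set differed by -0.32, so the probe sets disagreed in size but not in sign. The arrays were numbered 1 to 6 in each group. Among samples numbered 1 to 3 the Cyp2u1 difference was -1.15 (adjusted p = 0.0175), and among those numbered 4 to 6 it was -0.61 (adjusted p = 0.183).

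The Cyp2d subfamily holds hydroxylases of drugs and steroids. All 8 of its genes on the array were tested, all 8 differences were below 0, and 1 gene fell. Of all genes tested 53% were below 0 and 3.16% were called lower. The median was -0.14. On the signals as deposited 3 of the 8 were below 0, and 7 of 8 were below the shift of all genes. Cyp2d13, which RefSeq lists as a transcribed pseudogene, had levels of 8.05, 8.57, 8.79, 8.31 and 8.67 in the control samples. On the Western-style diet it ran from 7.62 through a median of 7.80 to 8.06. The groups overlapped only at control sample 1 and Western sample 6. The difference was -0.65 (SE 0.142, 95% interval -0.95 to -0.35), 1.57-fold lower, with an adjusted p of 0.00826. A second Cyp2d13 probe set gave -0.67. Probes of this subfamily can bind transcripts of near-identical relatives, so the source gene of the signal is uncertain. Holding the actin ratio constant, the Cyp2d13 difference was -0.58 and its adjusted p 0.109.

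Small differences without overlap were seen in 2 other Cyp2d genes. Cyp2d10 had control levels from 11.98 to 12.18 and Western levels from 11.77 to 11.97, a difference of -0.21 (adjusted p = 0.0894). Cyp2d26 lay between 12.12 and 12.22 in control and between 11.98 and 12.11 on the Western-style diet, a difference of -0.15 (adjusted p = 0.16). Neither passed the adjusted threshold, though Cyp2d10 did with a pseudocount of 64 (adjusted p = 0.0411) and with a trend of the spread on the level (eBayes trend, adjusted p = 0.0373). Over the whole family the groups did not overlap in 3 lower genes (with Cyp2u1) and in 1 higher gene, Cyp3a11, out of 35, while 2.73% of all genes were lower and 4.17% higher without overlap. The male-predominant steroid hydroxylase Cyp2d9 differed by -0.07 (95% interval -0.35 to 0.20). The other 4 genes, Cyp2d12, Cyp2d22, Cyp2d34 and Cyp2d40, differed by -0.19 to -0.05, and none passed.

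**Figure D2:**
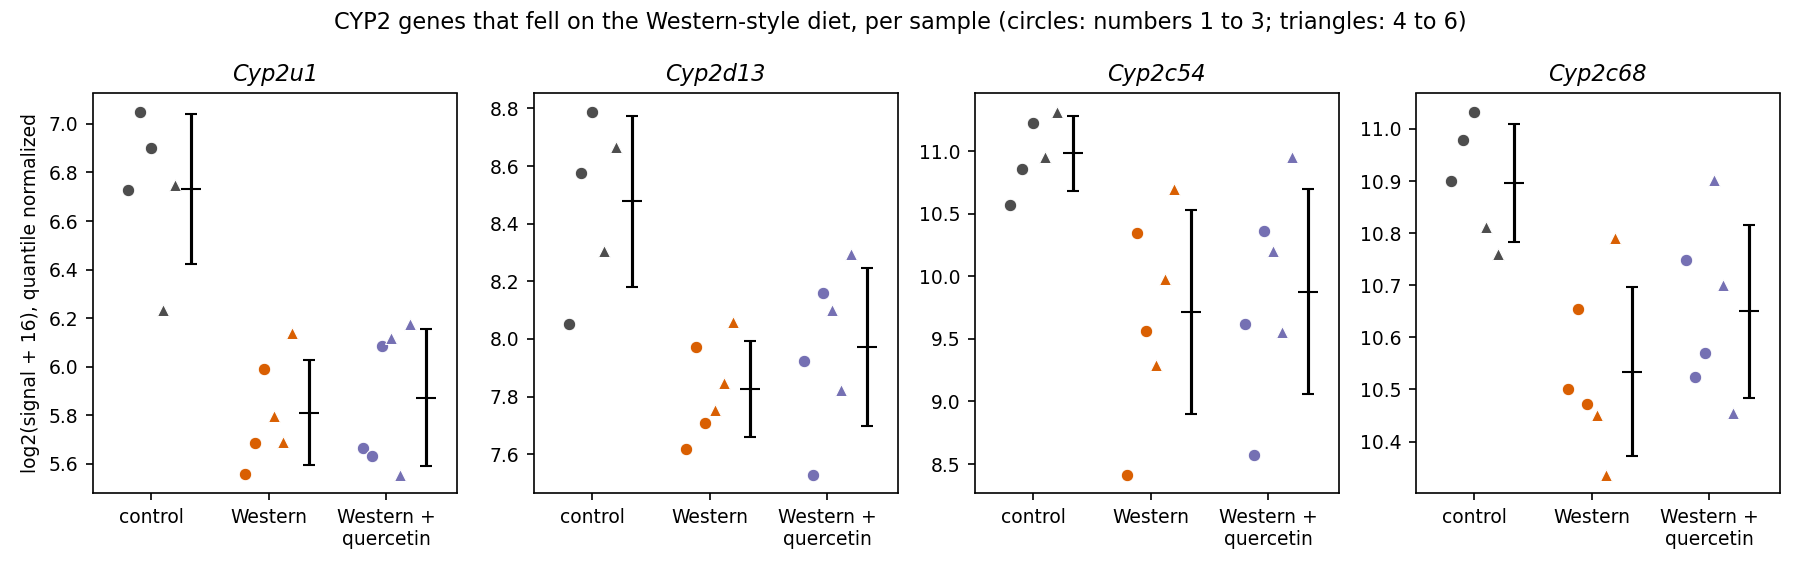
Level, log2(signal + 16) (y axis), of the 4 genes that fell on the Western-style diet, in each sample of the 3 diet groups (x axis). Circles are samples numbered 1 to 3, triangles those numbered 4 to 6 (control 4-5 among them), and black bars the mean ± SD (n = 5, 6 and 6). Cyp2u1 does not overlap between control and the other groups, and Cyp2c54 has the widest spread on the Western-style diet.

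The Cyp2c genes include the main arachidonic acid epoxygenases of mouse liver. Of 11 on the array 10 were tested, 2 fell and 7 of the 10 differences were below 0, with a median of -0.23 and a range of -1.27 to 0.44. Beside these counts, 3.16% of all genes tested were called lower and 53% were below 0. Cyp2c54, an epoxygenase, had levels of 10.57, 10.86, 11.22, 10.95 and 11.31 in the control samples. On the Western-style diet it ran from 8.41 through a median of 9.77 to 10.70, and only Western sample 6 reached into the control range. The difference was -1.27 (SE 0.381, 95% interval -2.07 to -0.47), 2.41-fold lower, with an adjusted p of 0.0457. Its standard deviation within groups was 0.71, larger than that of 99.8% of genes. Mean signals as deposited were 1870 in control and 967 on the Western-style diet. The call was close to the threshold: it held in 4 of the 17 fits that leave out 1 sample (those without Western 2, Western 6, quercetin 2 or quercetin 6), with adjusted p values from 0.0222 to 0.101 and differences from -1.47 to -1.01. With the actin ratio held constant the difference was -0.85 (adjusted p = 0.382).

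Cyp2c68 had a smaller and tighter difference. Its control levels were 10.90, 10.98, 11.03, 10.81 and 10.76. Western samples ran from 10.34 through a median of 10.49 to 10.79, and only Western sample 6 overlapped the control range. The difference was -0.36 (SE 0.0954, 95% interval -0.56 to -0.16), 1.29-fold lower, with an adjusted p of 0.0248. Leaving out any of 5 samples (control 2 and 3, Western 1, 4 and 5) ended the call, with adjusted p values of 0.0503 to 0.0657. It was also lost on the signals as deposited (-0.18, adjusted p = 0.244), where all genes shifted upward by a median of 0.22. Centring each array on its median (-0.33, adjusted p = 0.0808) or holding the actin ratio constant (-0.33, adjusted p = 0.181) ended the call too.

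Other Cyp2c genes did not pass. Cyp2c38, also an epoxygenase, had control levels of 9.43, 9.27, 8.97, 9.05 and 8.10 and Western levels from 9.21 through 9.42 to 9.56, a difference of 0.44 (95% interval 0.07 to 0.80, adjusted p = 0.134). All 6 Western samples were above the control mean, which the low control sample 6 pulled down. On the signals as deposited Cyp2c38 differed by 0.70 with an adjusted p of 0.016, beside a median shift of 0.22 over all genes. The epoxygenases Cyp2c23, Cyp2c29, Cyp2c37 and Cyp2c50 differed by -0.32, -0.29, -0.25 and -0.22, with adjusted p values of 0.205 to 0.576. Cyp2c70, which makes the muricholic acids of the mouse, differed by 0.06 (95% interval -0.21 to 0.34). Cyp2c39, a retinoic acid hydroxylase, differed by 0.13 and Cyp2c55 by -0.05.

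The promoter windows of Cyp2c68, Cyp2c29 and Cyp2c38 are shown because these 3 genes lie in 1 cluster on chromosome 19 and had differences of -0.36, -0.29 and 0.44. They are RefSeq windows of 300 bases on GRCm38.p6, from 250 before to 50 after the gene's start, read 5′ to 3′ on the gene's strand. Capitals mark exact matches on either strand to CAAAGTCCA (a site for HNF4), TATAAA (the TATA box) and AGGTCA (the half-site of many nuclear receptors). Cyp2c68 lies on the minus strand at chr19:39741052-39741351, Cyp2c29 on the plus strand at chr19:39286835-39287134, and Cyp2c38 on the minus strand at chr19:39463026-39463325.
Cyp2c68: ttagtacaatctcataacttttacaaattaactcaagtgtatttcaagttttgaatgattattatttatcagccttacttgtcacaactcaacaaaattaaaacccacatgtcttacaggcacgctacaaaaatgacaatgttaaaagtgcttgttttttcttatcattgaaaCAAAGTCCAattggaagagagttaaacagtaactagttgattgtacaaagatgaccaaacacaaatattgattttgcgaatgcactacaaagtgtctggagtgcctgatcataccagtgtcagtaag
Cyp2c29: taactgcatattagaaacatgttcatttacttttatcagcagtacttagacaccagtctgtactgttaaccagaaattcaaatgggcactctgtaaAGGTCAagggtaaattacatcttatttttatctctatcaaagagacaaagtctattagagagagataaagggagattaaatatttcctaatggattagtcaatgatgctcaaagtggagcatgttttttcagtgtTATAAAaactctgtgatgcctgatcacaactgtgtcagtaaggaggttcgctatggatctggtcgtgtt
Cyp2c38: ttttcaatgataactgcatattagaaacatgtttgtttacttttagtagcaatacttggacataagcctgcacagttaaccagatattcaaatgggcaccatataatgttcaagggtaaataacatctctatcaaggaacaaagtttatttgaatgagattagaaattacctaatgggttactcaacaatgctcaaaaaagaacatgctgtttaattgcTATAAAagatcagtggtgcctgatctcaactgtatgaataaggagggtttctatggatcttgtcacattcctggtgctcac
The Cyp2c68 window holds CAAAGTCCA at positions -77 to -69 from the start. That of Cyp2c29 holds AGGTCA at -154 to -149 and TATAAA at -19 to -14, and Cyp2c38 has TATAAA at -31 to -26. Windows of Cyp2c29 and Cyp2c38 were identical at 70.8% of aligned positions, those of Cyp2c68 and Cyp2c29 at 55.7%, and those of Cyp2c68 and Cyp2c38 at 53.6%.

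Of the 40 genes 32 had such a window, and Cyp2u1, Cyp2d13 and Cyp2c54 were not among them. CAAAGTCCA was found in 5 of the 32 (Cyp2c65, Cyp2c68, Cyp2c70, Cyp3a11 and Cyp3a16), beside 0.475% of all 32851 windows. TATAAA was found in 15 of 32, beside 13.6% of all windows, and AGGTCA in 12, beside 16.3%. A direct repeat of AGGTCA with 4 bases between the copies, and the HNF1 motif of GTTAAT and ATTAAC with 1 base between them, were in none of the 32 and in 0.0152% and 0.00913% of all windows. TTCNNNGAA, bound by STAT factors, was in 1 (Cyp2j11), beside 8.3% of all. Each of the 32 genes was counted by 1 window, the first listed for it, while the shares of all windows count every window listed. These units are unlike. Both strands were searched, the repeat contains AGGTCA, and windows of close relatives share sequence, so the matches are not independent.

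Cyp2b genes varied widely among mice. Of 4 on the array 3 were tested and none passed, with differences of -1.24 (Cyp2b9), -0.36 (Cyp2b10) and -0.35 (Cyp2b13). Cyp2b9, a female-predominant P450, had control levels of 9.81, 10.10, 9.26, 8.55 and 6.97. Western samples ran from 6.88 through 7.61 to 8.87 and the ranges overlapped widely. The 95% interval was -2.39 to -0.09 and the adjusted p 0.178. Its standard deviation within groups was 1.03, larger than that of 99.9% of genes. Without control 6, the low control sample, Cyp2b9 differed by -1.73 with an adjusted p of 0.0482. Cyp2b13 had control levels of 6.34, 5.87, 5.39, 4.40 and 4.61, high in the same samples as Cyp2b9.

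**Figure D3:**
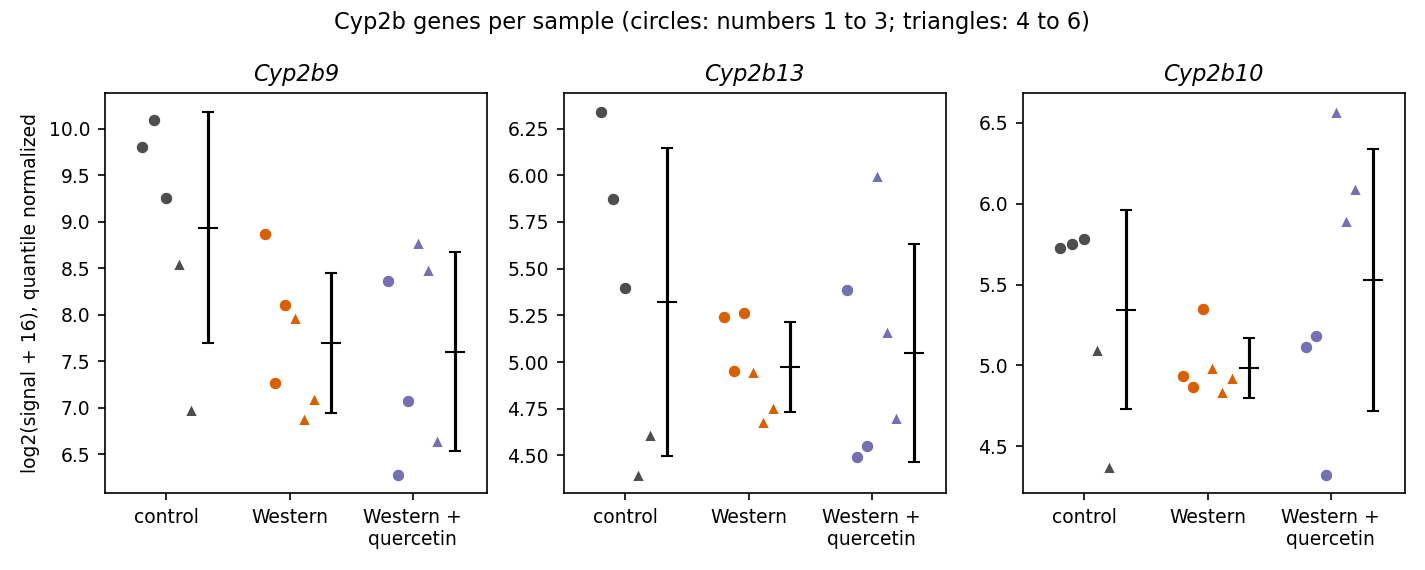
Level, log2(signal + 16) (y axis), of Cyp2b9, Cyp2b13 and Cyp2b10 in each sample of the 3 diet groups (x axis). Circles are samples numbered 1 to 3, triangles those numbered 4 to 6 (control 4-5 among them), and black bars the mean ± SD (n = 5, 6 and 6). Control circles lie above control triangles in all 3 genes, and for Cyp2b10 the 3 quercetin triangles (5.89 to 6.57) lie above every Western sample.

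Cyp2b10, the textbook CAR target, was dim though tested, and its levels split by sample number in 2 of the 3 groups. As deposited, its signal ran from 3.4 to 34.6 in control and from 12.8 to 24.1 on the Western-style diet. With quercetin it ran from 3.92 to 86.1, while the medians of the arrays lay between 12.7 and 23.2. Cyp2b13 was also dim, with signals from 3.14 to 58.6. Control samples 4-5 and 6 are the only control samples among numbers 4 to 6. The control levels of Cyp2b10 were 5.72, 5.75 and 5.78 in samples 1 to 3, and 5.10 and 4.37 in samples 4-5 and 6. Western samples lay between 4.83 and 5.35. With quercetin it was 5.11, 5.18 and 4.32 in samples 1 to 3 and 6.57, 5.89 and 6.09 in samples 4 to 6. Quercetin minus Western was thus 0.55 over all samples (95% interval -0.10 to 1.19, unadjusted p = 0.0918, adjusted p = 1), -0.18 among numbers 1 to 3 and 1.27 among numbers 4 to 6 (adjusted p = 0.261). Against control, the quercetin difference was -0.88 among numbers 1 to 3 (adjusted p = 0.0774) and 1.45 among numbers 4 to 6 (adjusted p = 0.0576). The difference between the sets was not tested, and the labels do not say whether the numbers mark a cage or a day. Cyp2b9 and Cyp2b13 had the same signs: quercetin minus Western was -0.84 and -0.34 among numbers 1 to 3, and 0.66 and 0.49 among numbers 4 to 6, and none of these passed. Against control the quercetin differences were -2.48 and -1.06 among numbers 1 to 3 (adjusted p = 0.0458 and 0.0854), and 0.21 and 0.78 among numbers 4 to 6 (adjusted p = 0.907 and 0.256). Probe sets for Cyp2b10 gave 0.55, 0.41 and 0.26 for quercetin minus Western.

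The Cyp2b windows are shown because the levels of the 3 genes are set side by side by sample number. All 3 are on the plus strand, Cyp2b9 at chr7:26173159-26173458, Cyp2b13 at chr7:26061245-26061544 and Cyp2b10 at chr7:25897408-25897707 (RefSeq, GRCm38.p6), with capitals as above.
Cyp2b9: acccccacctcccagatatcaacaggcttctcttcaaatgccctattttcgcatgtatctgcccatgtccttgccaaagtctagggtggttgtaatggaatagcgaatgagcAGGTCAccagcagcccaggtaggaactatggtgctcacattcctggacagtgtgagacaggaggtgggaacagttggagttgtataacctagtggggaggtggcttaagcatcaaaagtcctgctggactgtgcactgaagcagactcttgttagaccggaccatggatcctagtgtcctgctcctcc
Cyp2b13: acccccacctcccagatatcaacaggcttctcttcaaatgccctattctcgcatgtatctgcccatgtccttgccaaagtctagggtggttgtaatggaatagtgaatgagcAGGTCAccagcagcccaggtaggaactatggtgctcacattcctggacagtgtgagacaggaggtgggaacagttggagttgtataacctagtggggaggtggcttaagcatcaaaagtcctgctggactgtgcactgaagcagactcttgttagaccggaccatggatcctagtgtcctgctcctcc
Cyp2b10: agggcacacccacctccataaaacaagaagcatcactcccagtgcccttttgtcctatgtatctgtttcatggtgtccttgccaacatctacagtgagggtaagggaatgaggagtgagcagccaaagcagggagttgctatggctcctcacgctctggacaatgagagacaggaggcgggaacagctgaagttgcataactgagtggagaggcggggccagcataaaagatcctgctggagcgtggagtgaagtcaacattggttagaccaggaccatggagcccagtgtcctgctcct
The windows of Cyp2b9 and Cyp2b13 were identical at 298 of 300 positions (99.3%), and each holds AGGTCA at -138 to -133. Cyp2b10 was identical to either at 72.9% of aligned positions and held none of the 6 motifs in this window. Signal for Cyp2b9 and Cyp2b13 may be shared between their probes, so their values are uncertain. The sequences of the probes were not compared, and the likeness of the promoter windows does not measure such sharing.

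In 7 subfamilies the rule left 1 gene, and of these 7 genes Cyp2u1 was the only one that passed. Cyp2e1, which oxidises ethanol and acetaminophen, had levels of 13.20, 13.18, 13.20, 13.19 and 13.18 in control, and ran from 13.10 to 13.26 on the Western-style diet. It differed by -0.02 (95% interval -0.15 to 0.11). Its signal was on average 79.7% of the largest value on the same array. Whether the range of the array limited a rise was not tested. Cyp2f2, which oxidises naphthalene, differed by -0.05 (95% interval -0.19 to 0.09), and Cyp2a12, a hydroxylase of steroids and bile acids, by 0.04 (95% interval -0.12 to 0.20). Cyp2r1, the vitamin D hydroxylase, differed by 0.04 (95% interval -0.16 to 0.24). On the signals as deposited, where all genes shifted upward by a median of 0.22, it differed by 0.32 (adjusted p = 0.0343). The olfactory enzyme Cyp2g1 and the epithelial Cyp2s1, both dim here, differed by -0.58 and -0.42 with adjusted p values of 0.0805 and 0.0804. For Cyp2g1 the control levels were 4.80, 4.92, 4.89, 5.45 and 6.20 and the Western levels 4.25 to 4.95, so the ranges overlapped, and all 6 Western samples were below the control mean. Among numbers 4 to 6, where the only controls are 4-5 and 6, the Cyp2g1 difference passed (-1.002, adjusted p = 0.0493). Control 6 was the highest sample (6.20). Among numbers 1 to 3 the difference was -0.36 (adjusted p = 0.33). Over both sets it passed without control 1 (-0.70, adjusted p = 0.0495).

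Of 5 Cyp2j genes, a subfamily of arachidonic acid epoxygenases, 3 were tested and none passed. Cyp2j5 differed by 0.01 (95% interval -0.15 to 0.16) with its brightest probe set and by -0.24 with the other. Cyp2j6 differed by -0.08 and 0.15 with its probe sets, which disagreed in sign. Cyp2j9 differed by -0.23 (adjusted p = 0.262).

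None of the 4 tested Cyp3a genes passed. Cyp3a11, the main PXR target of mouse liver, had control levels of 12.87, 12.82, 12.93, 12.83 and 12.87. Western levels ran from 12.96 through 13.03 to 13.11, above every control sample. The difference was 0.17 (95% interval 0.03 to 0.30), 1.12-fold higher, with an adjusted p of 0.112. On the signals as deposited it passed (0.23, adjusted p = 0.0392), but the median shift of all genes there was 0.22, close to this difference. It also passed with a pseudocount of 64 (0.16, adjusted p = 0.0391) and with the eBayes trend (0.17, adjusted p = 0.0281). With array medians centred it was 0.08 (adjusted p = 0.605). The Cyp3a11 signal was on average 68.8% of the largest value on the same array. Cyp3a13, Cyp3a25 and the female-predominant Cyp3a44 differed by 0.01, -0.05 and 0.06. The 5 dim genes had group means from 4.06 to 4.54, at which no change could be measured, and were not tested. Western minus control differences ran from -0.10 to 0.12 among them. Cyp2j11 differed by 0.23 for quercetin minus control, and Cyp2j13 by -0.31 for quercetin minus Western, the latter without overlap. As deposited, Cyp2j13 signals were 5.34 to 10.5 on the Western-style diet and 0.806 to 4.54 with quercetin. Cyp2j11 reached at most 11. All of these lay under the lowest array median (12.7), so neither difference is read as a change.

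**Figure D4:**
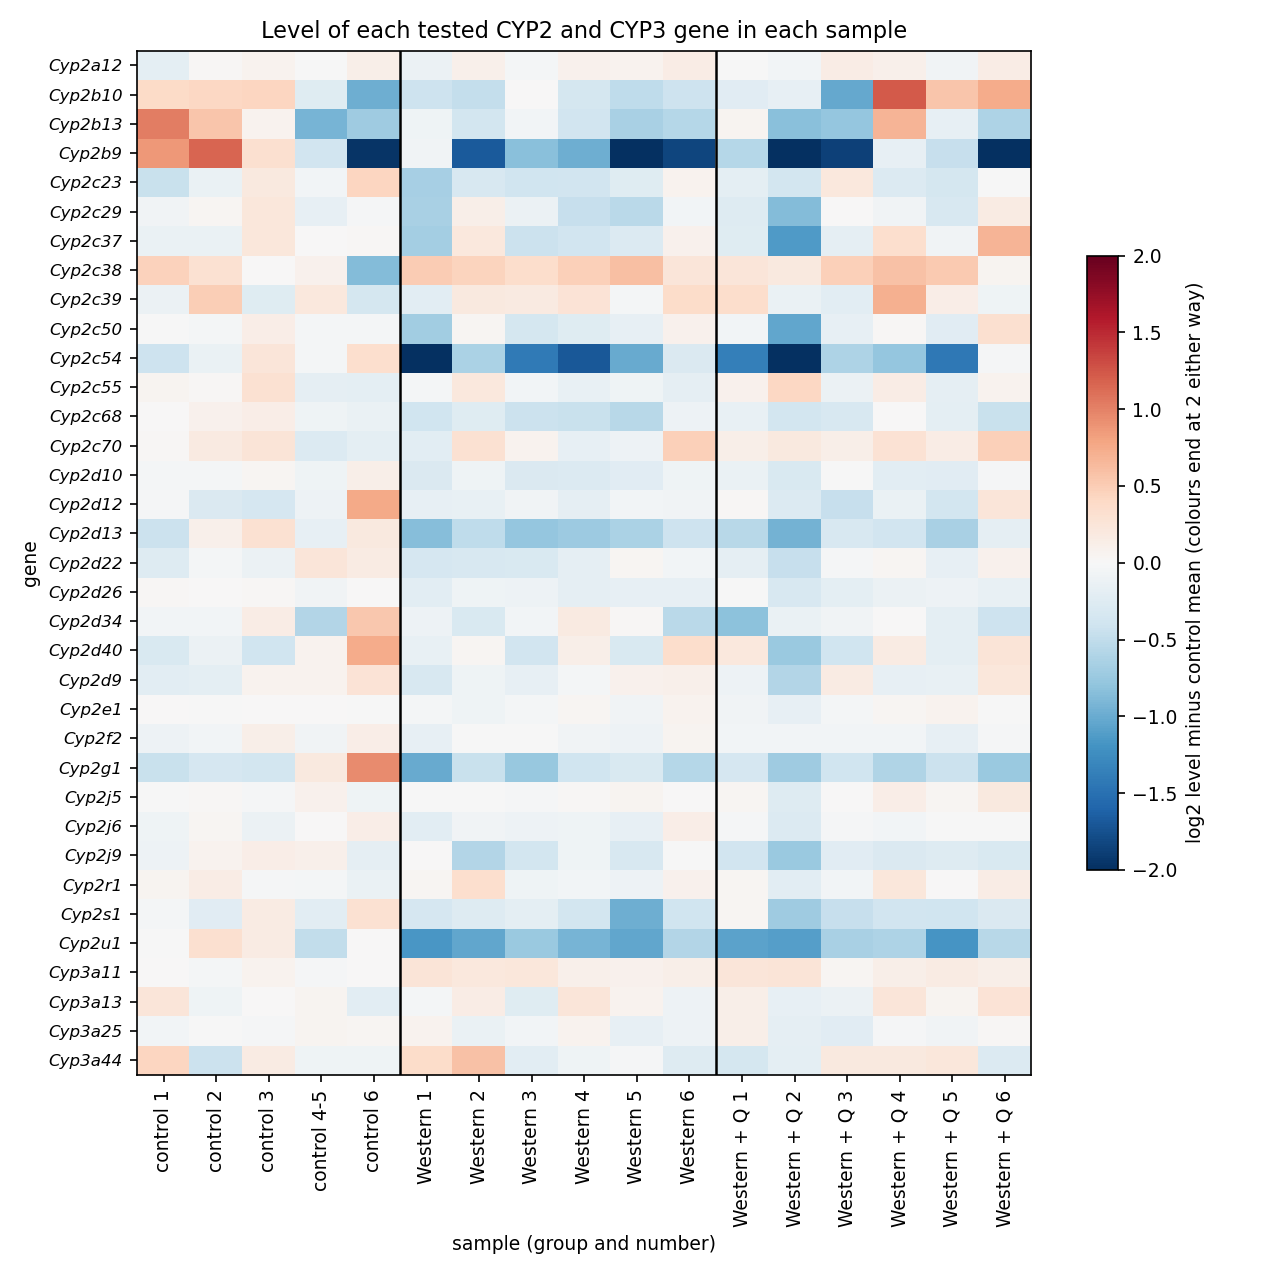
Level of each tested gene (rows, by subfamily) in each of the 17 samples (columns, Q is quercetin), as the log2 level minus the gene's control mean; blue is lower and red higher, and colours end at 2 either way. Cyp2u1 is blue in all 12 samples on the Western-style diet with or without quercetin, while Cyp2b9 and Cyp2c54 vary from sample to sample.

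On the Western-style diet with quercetin 2 of the 35 tested genes were lower than in control at an adjusted p under 0.05 and none was higher, 5.71% of the family beside 5.41% of all genes called, 1.98% called lower and 3.43% called higher. At an unadjusted p under 0.05 there were 9 lower (25.7%, beside 9.46% of all genes) and 1 higher, Cyp3a11 (beside 10.5%). The groups did not overlap in 2 lower genes, Cyp2u1 and Cyp2j9, and 0 higher, beside 2.1% and 2.55% of all genes. With the actin ratio held constant 1 of the 35 was lower, Cyp2u1 (-0.82, adjusted p = 0.0443), and 155 of all genes were called in place of 738. Cyp2u1 ran from 5.55 through a median of 5.87 to 6.17, below every control sample, and fell by 0.86 (95% interval -1.18 to -0.54, 1.81-fold lower, adjusted p = 0.00297). Cyp2d13 ran from 7.53 through 8.01 to 8.29 and overlapped the control range. It fell by 0.51 (1.42-fold lower, adjusted p = 0.0443), and this call held in 7 of the 17 fits without 1 sample. The samples whose removal ended it were numbers 2, 3 and 6 of control, 3, 4 and 5 of Western, and 1, 2, 4 and 5 of quercetin (adjusted p up to 0.115). Cyp2c54 differed by -1.10 (adjusted p = 0.103) and Cyp2c68 by -0.25 (adjusted p = 0.149). Without quercetin 6, Cyp2c54 passed (-1.32, adjusted p = 0.0378). Cyp2j9 did not overlap with control (5.53 to 6.05 against 6.09 to 6.40) and differed by -0.37 (adjusted p = 0.077, and 0.049 without Western 2). Cyp2b9 differed by -1.33 (adjusted p = 0.175), and by -2.48 among numbers 1 to 3 alone (adjusted p = 0.0458). Cyp3a11 differed by 0.16 (adjusted p = 0.161, and 0.0457 with the eBayes trend). Both comparisons with control use the same 5 control samples.

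Between the quercetin and Western groups none of the 35 genes passed, and none of the 13645 genes tested did (0% called by limma). At an unadjusted p under 0.05 there were 0 of 35 and 392 of 13645 (2.87%). The groups overlapped in all 35, while of all genes 0.066% were higher and 0.066% lower without overlap. Differences within the family ran from -0.14 to 0.55 with a median of 0.02. The genes that fell on the Western-style diet differed between the quercetin and Western groups by 0.06 (Cyp2u1, 95% interval -0.24 to 0.37), 0.15 (Cyp2d13, -0.14 to 0.43), 0.12 (Cyp2c68, -0.08 to 0.31) and 0.16 (Cyp2c54, -0.60 to 0.93). For Cyp2u1 the upper end of that interval is smaller than the fall of 0.92 on the Western-style diet, while for Cyp2c54 the interval is wide. These genes were picked by their low Western samples, which are also the reference here. That choice by itself favours differences above 0. For the PXR target Cyp3a11 the interval was -0.13 to 0.12 and for Cyp2e1 -0.13 to 0.11. The half-width of the interval had a median of 0.28 over the family, so smaller differences could not be told from 0 in a typical member.

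Several Cyp2c genes varied together among mice. Correlations were computed between all 595 pairs of tested genes over 17 samples, on deviations from the group means, with permutation tests and Benjamini-Hochberg adjustment over the pairs. Of these, 49 pairs passed by Pearson correlation, 46 of them positive. Pairs of genes outside the family were not counted in this way. Whether the family holds more such pairs than other genes was thus not tested. Cyp2c50 and Cyp2c54 had a Pearson r of 0.888 (permutation p = 1e-05, the smallest that 100000 permutations can give, adjusted p = 0.00085) and a Spearman rho of 0.711 (permutation p = 0.00166, adjusted p = 0.0366). Without the 2 samples farthest from the median of Cyp2c50 r was 0.844, and it was 0.88 among numbers 1 to 3 and 0.865 among numbers 4 to 6. Cyp2c37 and Cyp2c50, whose promoter windows were 86.6% identical, had an r of 0.946 and a rho of 0.74 (permutation p = 1e-05 and 0.00112, adjusted p = 0.00085 and 0.029), and r = 0.849 without the 2 farthest samples. Western sample 1 and quercetin sample 2 were the lowest in both genes of either pair within their groups. The SD of Cyp2c50 was 0.07 in control, 0.28 on the Western-style diet and 0.46 with quercetin, and that of Cyp2c54 was 0.30, 0.82 and 0.82. Control samples thus weigh less in r, and the permutations mixed groups of unlike spread. Correlations within each diet group were not computed. Cyp2b9 and Cyp2b13 had an r of 0.83 and a rho of 0.85 (permutation p = 3e-05 and 7e-05, adjusted p = 0.00198 and 0.00521). Without the 2 samples farthest from the median of Cyp2b13 r was 0.835, and within the numbered sets it was 0.845 and 0.785. Pairs within a subfamily had a median r of 0.323 (85 pairs), and pairs across subfamilies 0.164 (510 pairs). Levels from 1 array share its labelling and scan, and related genes can share probe binding.

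**Figure D5:**
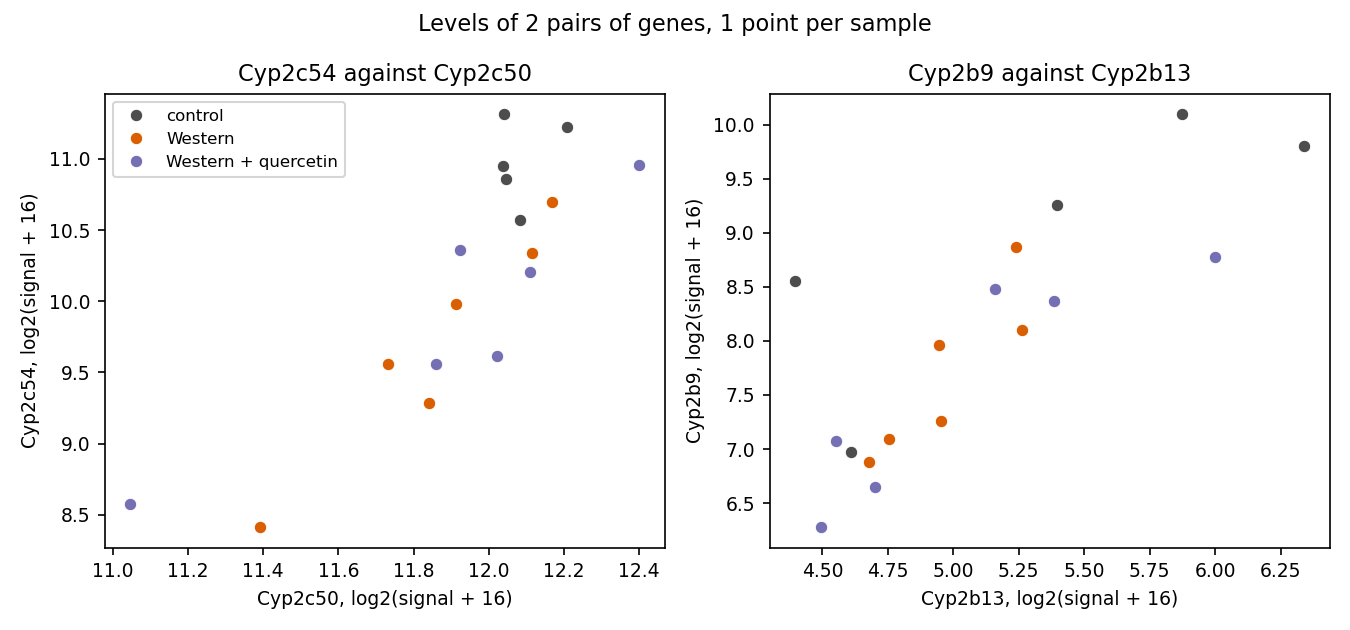
Levels, log2(signal + 16), of Cyp2c54 (y axis) against Cyp2c50 (x axis), left, and of Cyp2b9 against Cyp2b13, right, 1 point per sample and 1 colour per diet group. Points lie along a rising line in both panels (r = 0.888 and 0.83 on deviations from group means), and the control samples lie toward the upper end in the left panel.

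Outside the family, the genes with levels most like those of Cyp2u1 over the 17 samples were Hal, which degrades histidine (Pearson r = 0.939), Entpd8 (0.929) and Sdc2 (0.921). For Cyp2d13 they were Abat (0.940), Pxmp2 (0.939) and Prodh2 (0.929). These correlations include the difference between the diets that both genes of a pair share. On deviations from the group means they were 0.78, 0.749 and 0.668 for Cyp2u1 and 0.869, 0.846 and 0.817 for Cyp2d13.

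Genes that serve or regulate the P450s were read from lists. Their counts stand beside 5.49% of all 13645 genes tested called higher and 3.16% called lower for Western minus control. Of 15 tested redox partners of P450s and enzymes of heme supply, 1 rose on the Western-style diet, the biliverdin reductase Blvrb (0.49, 1.41-fold higher, adjusted p = 0.000362), and the median difference was -0.02. Of 21 nuclear receptors and liver transcription factors, Nr5a2 fell by 0.57 (adjusted p = 0.013) and Nfe2l2, which encodes the oxidative stress factor NRF2, rose by 0.46 (adjusted p = 0.0245), with a median of -0.10. Among 22 tested genes known to be raised by activators of CAR or PXR, 6 rose and 0 fell, with a median of 0.06: the glutathione transferases Gstm3 (4.15-fold higher, adjusted p = 0.00108), Gstm1 (1.49-fold, adjusted p = 0.00217), Gstm2 and Gsta2, and the transporters Abcc3 (1.47-fold, adjusted p = 0.00376) and Abcc4. This list also holds Cyp2 and Cyp3 genes, none of which is among the 6. Of 28 other P450 genes tested, 5 fell (the lanosterol demethylase Cyp51, Cyp46a1, Cyp4f14, Cyp1a2 and Cyp4a14) and 1 rose (Cyp4f18). None of these lists had a member called between the quercetin and Western groups.

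Markers of liver zones and cell types were read beside the family. Over all genes tested, 5.49% were called higher and 3.16% lower for Western minus control. Of 13 tested periportal hepatocyte genes 5 fell on the Western-style diet (Hal, Arg1, Ass1, Asl and Pck1; median -0.19). Of 12 pericentral genes 1 fell (Cyp1a2; median -0.08). Of 9 hepatocyte markers 1 fell (Tat; median -0.06), and their summed signal was 53800 to 58000 in control and 53300 to 55900 on the Western-style diet. In the same samples 10 of 17 macrophage markers rose (median 0.68), with a summed signal of 5950 to 7500 in control, 8910 to 15900 on the Western-style diet and 7460 to 20200 with quercetin. Of 10 stellate cell markers 4 rose (median 0.40), with sums of 1930 to 2070, 2440 to 3290 and 2270 to 3730. The part of cell makeup in the lower P450 levels was not tested. Of 10 endothelial markers 1 rose (Lyve1). No marker of T cells, B cells, neutrophils or cholangiocytes passed. The exocrine pancreas marker Cela1, at 9.29 in control, fell by 1.31. In the lists for kidney, erythroid cells and adipocytes 1, 1 and 0 genes were bright enough to test, and none passed.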

How the data were processed

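The deposited values are linear intensity values, 1 signal per probe set of the Mouse430_2 array. How the authors obtained them from the scans, and with what scaling, is not given in the labels or headers. Of 45101 probe sets 64 controls were left out, and log2(value + 16) of the rest was quantile normalized over 18 arrays. Probe sets paired with 1 symbol (34945, with 932 on several and 9160 on none) gave 18193 genes, of which the 4548 with means below the 25th percentile (log2 4.564) were too dim to test. The group means of 17 samples were fitted and contrasted with limma 3.58.1 in R 4.3.3 (eBayes, two-sided), and p values were adjusted by Benjamini-Hochberg over 13645 genes in each of 3 comparisons. The procedure was tested on simulated data. The number of arrays limits the precision. Correlations, promoter searches and figures used Python 3.11.15, Biopython 1.88 and matplotlib 3.10.9. Mice were taken as replicates. The members and gene lists were chosen with earlier results of these data known. Genes were named where they passed a test, or were the brightest or had the smallest p of their subfamily, or were its only member, or were dim. Genes most like Cyp2u1 and Cyp2d13 were the 3 with the highest Pearson correlation to each. Alternatives covered normalization, pseudocount, dim genes, choice of probe sets, blocks, sets of samples and leaving out each sample; the fit with the actin ratio was chosen after seeing the data.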

Additional observations from a re-analysis of the deposited data

Results flagged for a closer look

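In 9 of 105 groups of a tested gene, 1 sample stood far from the others of its diet group by Dixon's criterion, beside 5.25 expected by chance at 1 in 20. In the Western group, Cyp2b10 was high in sample 3 (5.35, others 4.83 to 4.98), Cyp2c55 was high in sample 2 (6.45, others 6.05 to 6.19) and Cyp2s1 was low in sample 5 (4.07, others 4.65 to 4.86). In control, Cyp2c50 was high in sample 3 (12.21, others 12.04 to 12.08), Cyp2d12 was high in sample 6 (6.15, others 5.05 to 5.36) and Cyp2d26 was low in sample 4-5 (12.12, others 12.20 to 12.22). With quercetin, sample 2 was low in Cyp2j6 (7.42, others 7.64 to 7.68) and Cyp2j9 (5.53, others 5.89 to 6.05), and sample 5 was low in Cyp2f2 (12.06, others 12.16 to 12.19).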

How the results depend on the processing

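Under 33 alternatives, 17 of them leaving out 1 sample, the 4 genes lower on the Western-style diet kept their sign. Calls held in 32 (Cyp2u1), 30 (Cyp2d13), 22 (Cyp2c68) and 15 (Cyp2c54), and no result with a call changed sign.

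On the signals as deposited, all genes called were 3725 for Western minus control and 3255 for quercetin minus control, the family medians were 0.048 and 0.0526, and 4 members passed against control with quercetin: Cyp2u1 lower, and Cyp2c38, Cyp2c70 and Cyp2r1 higher. All genes there shifted upward by medians of 0.2155 and 0.221. With quercetin, 1 member (Cyp2u1) passed with array medians centred, a pseudocount of 1, no filter on dim genes, or only the 2 groups compared (466 of all genes). Among numbers 1 to 3, 1 member passed for Western minus control, with 88 and 224 of all genes in the comparisons with control. Among numbers 4 to 6, 1 and 0 members passed, with 296 and 32 of all genes. These fits hold fewer samples. With the actin 3′/5′ ratio held constant, chosen after seeing the data, 1 member (Cyp2u1) passed in either comparison with control, the medians were -0.0456 and -0.0185, and 223 and 155 of all genes passed. Leaving out 1 sample gave 2 to 4 members and 748 to 1394 genes for Western minus control, and 1 to 3 members and 460 to 949 genes for quercetin minus control. Member medians then ran from -0.15 to -0.10 and from -0.16 to -0.04. For quercetin minus Western, 0 members passed under each of the 33.

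Samples of 1 number were not taken as pairs in the main fit, though 13 of 16 same-number correlations of deviations were over 0.1 (range -0.262 to 0.324). Samples of different numbers were not compared in this way, so whether samples of 1 number are more alike was not tested. With each number as a replicate block 3 and 2 members passed against control, and the Cyp2c68 call was lost (adjusted p = 0.0696). With a block of numbers 1 to 3 and 4 to 6, 5 and 2 passed, with Cyp2g1 gained for Western minus control (adjusted p = 0.0341).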

Other observations

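Probe sets paired with several symbols were outside the rule, and 2 of them belong to these families. The probe set for the female-predominant Cyp3a41a and Cyp3a41b had mean levels of 5.65 ± 0.44 (SD, n = 5) in control, 6.13 ± 0.48 (n = 6) on the Western-style diet and 6.21 ± 0.39 (n = 6) with quercetin. Its difference from control was 0.48 (exact two-sided permutation test, p = 0.115) and 0.56 with quercetin (exact permutation p = 0.0455, unadjusted). The probe set for the steroid and coumarin hydroxylases Cyp2a4 and Cyp2a5 had means of 11.57 ± 0.54, 11.85 ± 0.18 and 11.86 ± 0.19, with control samples from 10.84 to 12.11 that spanned those of both other groups (exact permutation p = 0.279 for Western minus control).

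Between the numbered sets, over all diets, 890 of 13645 genes differed (6.52%) in limma with the diet group in the model. Of the 35 tested P450 genes 1 did, Cyp2d22, which was higher in numbers 4 to 6 by 0.26 (adjusted p = 0.0255).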
